A study of Mus musculus with 4 samples.

Results

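The cells described here are mouse embryonic stem cells that held many transcripts of Zfp42 and of Dnmt3b at the same time. They were chosen by raw counts of unique molecular identifiers (UMIs, tags that mark single captured transcripts). Only cells that passed quality limits set after the study's methods were used, and their number differs from the one the study reports. A member had at least 5 UMIs of Zfp42 and at least 10 of Dnmt3b, with fewer than 5 of Fgf5 and Pou3f1 together and fewer than 5 of Krt8 and Krt18 together. This rule took 1912 of 31989 kept cells, or 5.98%. The 6 genes of the rule are therefore descriptions of the members and not findings about them.

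Zfp42, also called Rex1, encodes a zinc-finger protein used as a marker of the naive state, the ground state of pluripotency in the early epiblast. Dnmt3b encodes a DNA methyltransferase that sets new methylation marks and rises when cells leave the naive state for the formative state, in which they become able to respond to lineage signals. Cells on that path lose Zfp42, Nanog, Klf4 and Esrrb and gain Otx2, Lef1, Fgf5 and Pou3f1, so a cell with much Zfp42 and much Dnmt3b but few counts of Fgf5 and Pou3f1 carries markers of each end.

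The study profiled the male mouse embryonic stem cell line E14tg2a.4 by 10x Genomics droplet sequencing of transcript 3′ ends, with 2 WT samples and 2 Srrm2 hKO samples. Srrm2 hKO is 1 gene-trap clone derived from E14tg2a.4 with a heterozygous truncation of Srrm2, a splicing factor gene. Both lines were kept on gelatin with LIF and then moved to serum-free ESGRO medium with LIF, for a time that the labels give as 24 h or 72 h without assigning it to samples, while the study's methods give another length for the single-cell cultures. The joined matrix marks 4 libraries by number only, and nothing used here ties a number to a labelled sample, so values are given per library and WT and Srrm2 hKO were not compared.

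Members were unevenly spread over the libraries. Libraries 1 to 4 held 38, 1057, 110 and 707 of them, which was 0.468% (0.331 to 0.642), 12.4% (11.7 to 13.1), 1.39% (1.15 to 1.68) and 9.47% (8.82 to 10.2) of the kept cells of each library (95% exact binomial intervals in parentheses). Libraries 2 and 4 were high, libraries 1 and 3 low, and the intervals of no pair of libraries overlapped under this rule. Those of libraries 2 and 4 did overlap at a limit of 15 UMIs of Dnmt3b, with 3.96% to 4.84% and 3.12% to 3.97%. These intervals cover counting error only. Among cells with at least 5 UMIs of Zfp42 and the same limits on Fgf5, Pou3f1 and keratins, 0.572%, 16.9%, 2.08% and 22.9% reached 10 UMIs of Dnmt3b. Among cells with at most 1 UMI of Zfp42 the shares were 19.8%, 54.4%, 22.2% and 63.5%, given as a description since both genes define the class. No barcode was repeated among the members, and 10 members had a barcode that also occurred in another library.

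The comparison cells had the same limits but at most 3 UMIs of Dnmt3b. They numbered 6078, 2536, 4239 and 1039 in libraries 1 to 4. Library 1 held too few members (under 50) to be compared, and its values are given as a description. A further class of cells with at most 1 UMI of Zfp42 and at least 10 of Dnmt3b was set beside the members as the other end. This class again had few Fgf5, Pou3f1 and keratin counts by rule. Cells richer in Fgf5 and Pou3f1 were left out, so it was an end only among the classes used here. It had 68, 218, 125 and 624 cells.

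A limit in raw counts favours cells with many UMIs, and members had more of them than the comparison cells in every library. The median member held 28393, 33753 and 26189 UMIs in libraries 2, 3 and 4, against 19732, 18529 and 18958 in the comparison cells. Members over 2 times their library's median made up 42.1, 11.9, 36.4 and 6.36 percent of the class in libraries 1 to 4. Among comparison cells these shares were 4.00, 0.158, 2.05 and 0.192 percent. Libraries 1 and 3, where members were rare, therefore had the larger shares of very deep members, and the part of depth or of doublets (droplets with more than 1 cell) in the class was not tested by a doublet caller. Thinning each cell to 10000 UMIs, with the limits scaled down to at least 3 UMIs of Zfp42 and 5 of Dnmt3b, gave 23, 844, 97 and 692 members, or 0.289%, 10.2%, 1.27% and 9.62% of the kept cells with that many UMIs, and here too the intervals of libraries 2 and 4 overlapped, at 9.51% to 10.8% and 8.95% to 10.3%. The result with comparison cells weighted to the depth of members is given below where it ended the call of a gene named.

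**Figure D1:**
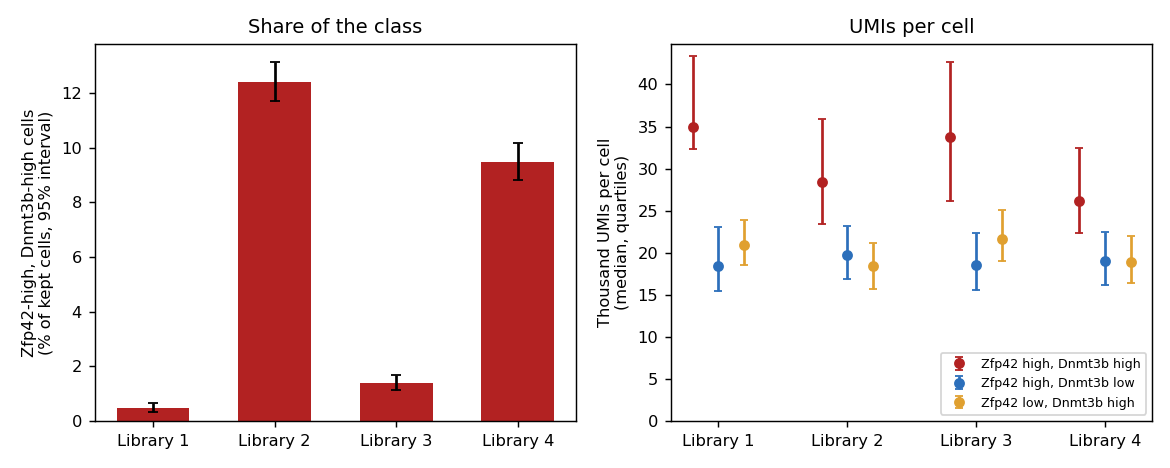
Left, members as a percentage of kept cells in each library with 95% exact binomial intervals; right, UMIs per cell (axis in units of 1000; point, median; bars, quartiles) in the members, in Zfp42-high cells low in Dnmt3b and in Dnmt3b-high cells low in Zfp42. The share was 12.4% and 9.47% in libraries 2 and 4 against 0.468% and 1.39% in libraries 1 and 3, and members were the deepest of the 3 classes in each library.

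Levels are UMIs of a gene per 1000000 UMIs of the summed cells (CPM). Zfp42 lies on chromosome 8 (43295063 to 43306980, minus strand) and Dnmt3b on chromosome 2 (153649450 to 153687730, plus strand) of mm10. By the choice of cells, Dnmt3b stood at 470.5, 392 and 535 CPM in members of libraries 2, 3 and 4, against 80.1, 60.5 and 83.9 CPM in the comparison cells and 1098, 656 and 1016 CPM in the cells low in Zfp42. Members and cells low in Zfp42 had the same minimum of Dnmt3b UMIs and members were the deeper, so nothing is read from their order. Zfp42 stood at 642, 374 and 670.1 CPM in members and at 676, 593 and 700.2 CPM in the comparison cells. In library 1 it was 293 against 602 CPM. These classes too share a minimum of Zfp42 UMIs and differ in depth, so these values are a description only. The median member had 13 UMIs of Dnmt3b in libraries 1, 2 and 4 and 12 in library 3.

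Just inside the Dnmt3b limit, 619 cells with 10 or 11 UMIs (libraries 2, 3 and 4 pooled) had Nanog at 118 CPM, Dnmt3a at 62.2 CPM and Otx2 at 95.8 CPM, and just outside it 994 cells with 8 or 9 UMIs had 129, 56.1 and 88.3 CPM. These levels were close on both sides of the limit, and the distribution of Dnmt3b itself was not examined. At the Zfp42 limit, 57 cells with 5 UMIs had Nanog at 78.3 CPM and 86 cells with 4 UMIs had 36.6 CPM. At the limit on Fgf5 and Pou3f1, Nanog was 89.8 CPM in 145 cells with 4 UMIs and 68.2 CPM in 128 cells with 5. All these cells were pooled over libraries 2, 3 and 4. The share of each library could differ between the sides of a limit, and its part in these values was not tested. The limits on Fgf5 and Pou3f1 and on keratins left out 714 and 28 cells that met the rest of the rule.

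Members were compared with comparison cells across all genes within each library. A gene was tested when at least 30 counts were expected in each class of each library, which 7775 genes outside the rule met. The expected count used the mean of the levels in both classes. A gene could therefore pass through the class where it was high and have few counts in the other. It was called when it was at least 1.5-fold higher, or lower, in libraries 2, 3 and 4 alike. There is no p-value, because libraries are not replicates of a known group and cells are not replicates. In all, 52 genes (0.669% of those tested) were called higher in members and 29 (0.373%) lower. With comparison cells weighted to the members' depth, 53 genes (0.682%) were called higher and 28 (0.36%) lower, and 32 and 24 were the same genes as before. The median log2 ratio of all tested genes was 0.05, 0.07 and 0.06 in libraries 2, 3 and 4. Scaling by size factors moved the ratios by 0.12 in library 3 and by under 0.1 in the others, and then 35 genes were called higher and 36 lower. Without cells of either class over 2 times the library median, 29 of the 52 genes and 19 of the 29 genes still had enough counts to be tested. Of these, 27 and 18 were called. Among members and comparison cells with 0 UMIs of Fgf5 and Pou3f1, 18 and 17 could be tested and 8 and 7 were called. A ratio above 0 in every library was found for 41.3% of all tested genes and one below 0 for 18.3%.

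Most naive genes stood lower in members than in comparison cells, by less than the call, and far above the cells low in Zfp42. Of 17 naive genes outside the rule 15 were tested, and 14 of them had a ratio below 0 in every library, against 18.3% of all tested genes, with Tet2, a DNA demethylase gene, as the exception. Only Tfcp2l1 and Tbx3 were called lower, where the background was 0.373% of tested genes, and Tfcp2l1 lost its call among cells with 0 UMIs of Fgf5 and Pou3f1. The list's median log2 ratio was -0.28, -0.81 and -0.35 in libraries 2, 3 and 4, so the ratio to comparison cells was lowest in library 3.

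Tbx3, a T-box factor of the naive network, stood at 7.13, 17.03 and 4.11 CPM in members and at 19.3, 53.7 and 10.4 CPM in comparison cells, a log2 ratio of -1.44 (95% interval -1.65 to -1.23), -1.66 (-2.03 to -1.30) and -1.34 (-1.73 to -0.97). Members were below comparison cells in each library, although members of library 3 had about as much Tbx3 as comparison cells of library 2. Tfcp2l1, which helps keep naive cells self-renewing under LIF, was at 72.2, 47.2 and 43.4 CPM against 117, 91.5 and 75.2 CPM. Nanog, a core regulator that falls early when cells leave the naive state, was at 126, 80.7 and 87.5 CPM against 177, 141 and 125 CPM, a log2 ratio of -0.50, -0.81 and -0.51 that did not reach the call in libraries 2 and 4. Klf4, a Krüppel-like factor downstream of LIF, had log2 ratios of -0.48, -0.95 and -0.39.

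Klf2 differed less. It was at 488, 354 and 357 CPM in members and 560.5, 562 and 455 CPM in comparison cells, but at 85.7, 78.1 and 36.7 CPM in cells low in Zfp42. Esrrb, an orphan nuclear receptor of the naive network, was at 56.2, 34.9 and 52.5 CPM in members, 69.8, 69.4 and 67.8 CPM in comparison cells, and 5.93, 5.70 and 3.98 CPM in cells low in Zfp42. For both genes the members of libraries 2 and 4 lay close to the comparison cells, and members of every library lay far from the other end. All 13 naive genes that could be tested against the cells low in Zfp42 were at least 1.5-fold higher in members in every library, where 247 of 6975 genes (3.54%) were called higher and 235 (3.37%) lower. The median log2 ratio of these 13 genes was 2.51, 2.01 and 2.62. Zfp42 itself defined that contrast.

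None of 7 core genes, shared by naive and formative cells, was called. Pou5f1, which encodes OCT4, was at 809.6, 678 and 778 CPM in members and 764, 719.7 and 730.4 CPM in comparison cells. Sox2 had a log2 ratio of -0.19, -0.58 and -0.22.

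Formative genes stood on the other side. Of 13 formative genes outside the rule 10 were tested. All 10 had a ratio above 0 in every library, against 41.3% of all tested genes, and 5 were called higher, namely Otx2, Lef1, Pim2, Sox4 and Sox11, against the background of 0.669% of tested genes. The list's median log2 ratio was 0.93, 0.60 and 1.12. At weighted depth Foxd3 turned to -0.07 in library 3 and the other 9 stayed above 0 in each library. These genes were listed with earlier results of these data known, and Fgf5 and Pou3f1, which follow a similar course, were capped by the rule. Among cells with 0 UMIs of Fgf5 and Pou3f1, Pim2 and Sox4 were still called, Otx2 was not, and Lef1 and Sox11 had too few counts to be tested.

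Otx2, a homeobox factor that drives the move to the formative state, was at 98.5, 35.4 and 127 CPM in members and at 54.3, 21.7 and 64.7 CPM in comparison cells, a ratio of 1.81-fold, 1.63-fold and 1.96-fold. Of these libraries library 3 had the lowest level in each class, and with size factors Otx2 lost its call. Lef1, a transcription factor that acts with β-catenin in Wnt signalling, was at 37.8, 21.5 and 31.8 CPM against 10.8, 7.35 and 8.70 CPM, or 3.49-fold, 2.92-fold and 3.65-fold higher. Its level in cells low in Zfp42 was 55.8, 28.9 and 38.9 CPM, so members had most of the Lef1 of those cells.

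Sox4 and Sox11, SoxC factors better known from neural progenitors, were further from that other end than Lef1. Sox11 was at 42.3, 47.7 and 43.99 CPM in members, 13.8, 7.71 and 16.2 CPM in comparison cells and 127, 72.02 and 104 CPM in cells low in Zfp42. Pim2, a serine/threonine kinase gene, was at 47.3, 112 and 64.9 CPM in members, 17.1, 11.4 and 21.8 CPM in comparison cells and 342, 284 and 313 CPM in cells low in Zfp42. Sox4, Sox11, Pim2 and Zic2 lay between both classes with steps of at least 1.25-fold on each side in every library. Tcf15, by contrast, was called higher in members than in cells low in Zfp42, at 99.4, 113 and 104 CPM against 57.3, 65.96 and 40.8 CPM.

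**Figure D2:**
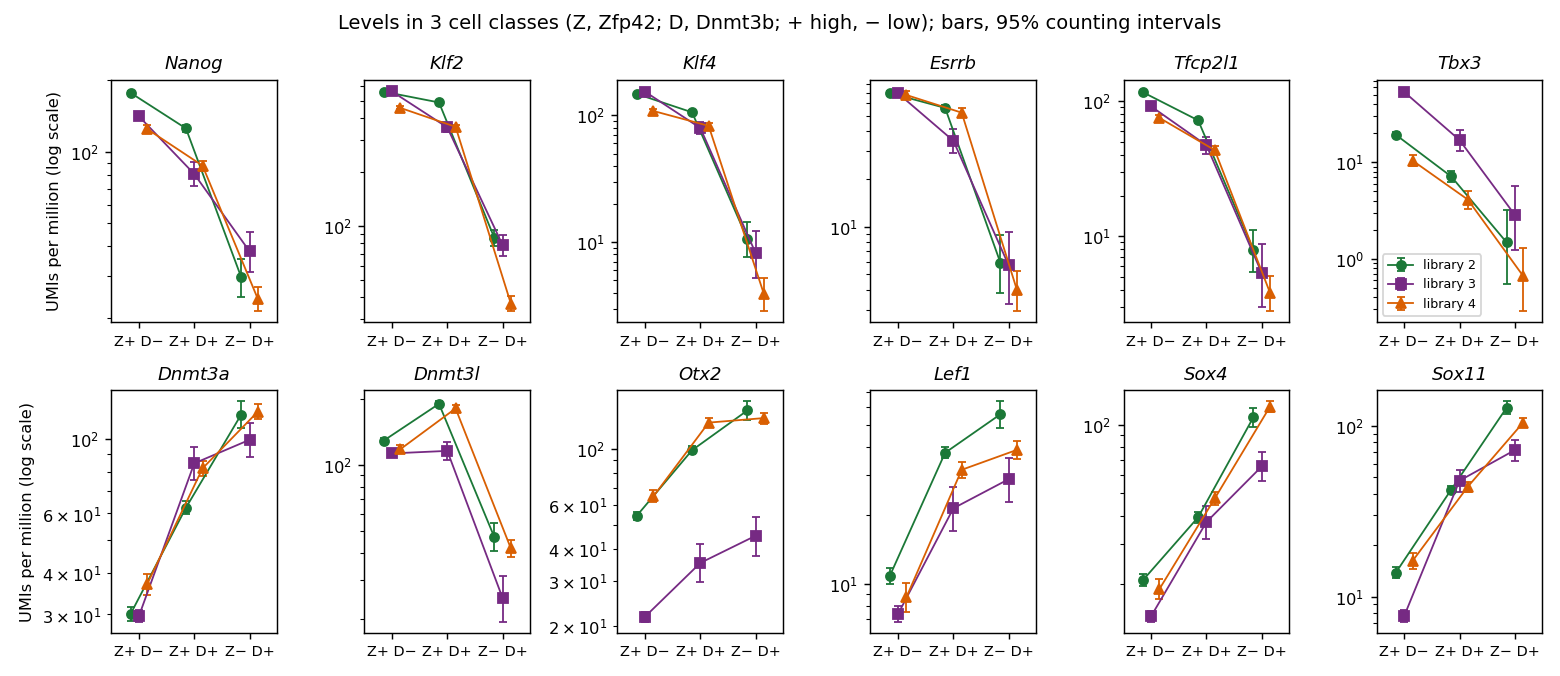
Levels (CPM, log scale, a separate range in each panel) of 6 naive genes in the top row and of Dnmt3a, Dnmt3l and 4 formative genes in the bottom row, in Zfp42-high Dnmt3b-low cells (Z+ D−), members (Z+ D+) and Zfp42-low Dnmt3b-high cells (Z− D+) of libraries 2, 3 and 4, with 95% Poisson intervals. The 6 naive genes step down from left to right, Dnmt3a, Lef1, Sox4 and Sox11 step up as does Otx2, and Dnmt3l is highest in the members of libraries 2 and 4.

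Of the DNA methylation machinery 11 genes were tested, and Dnmt3a alone was called higher, against the background of 0.669% of tested genes. A ratio above 0 in every library was found for 7 of the 11, and for 5 at weighted depth, where 41.3% and 36.6% of all tested genes had one. Dnmt3a encodes the other de novo methyltransferase and was at 62.4, 84.6 and 81.8 CPM in members and 30.1, 29.7 and 36.99 CPM in comparison cells. The ratio was 2.07-fold, 2.85-fold and 2.21-fold. On the log2 scale it was 1.05 (95% interval 0.95 to 1.15), 1.51 (1.34 to 1.68) and 1.14 (1.02 to 1.27). Dnmt3a kept its call under all 18 alternatives run. Its level in cells low in Zfp42 was higher again, at 118, 99.5 and 121 CPM.

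Dnmt3l, which encodes a catalytically inactive partner of Dnmt3a and Dnmt3b, did not follow the order of Dnmt3a. It was at 189.8, 116 and 181 CPM in members, at 129, 113 and 118 CPM in comparison cells and at 47.2, 24.96 and 41.9 CPM in cells low in Zfp42. Members were the highest of the 3 classes in libraries 2 and 4, by 1.47-fold and 1.53-fold over comparison cells, while in library 3 they matched the comparison cells with log2 ratios over libraries 2, 3 and 4 of 0.55 (95% interval 0.50 to 0.60), 0.04 (-0.10 to 0.18) and 0.62 (0.54 to 0.69). Among cells of 20000 to 30000 UMIs, a window chosen after the data were seen, the 33 members of library 3 had Dnmt3l at 197 CPM against 118 CPM, so the value in library 3 depended on which members were counted. In library 1 Dnmt3l was lower in members, at 66.4 CPM against 112 CPM.

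Hells, a chromatin remodeller needed for DNA methylation, had nearly the same ratio in each library, 1.29-fold, 1.31-fold and 1.29-fold, without reaching the call. Dnmt1, the maintenance methyltransferase, had log2 ratios of 0.09, 0.09 and 0.09, close to the median of all genes. Uhrf1, which brings Dnmt1 to DNA, had ratios of 0.35, 0.00 and 0.38. Tet1, which encodes an enzyme that oxidises 5-methylcytosine, was at 409.9, 305 and 451 CPM in members and at 234, 158 and 201 CPM in cells low in Zfp42, and at 370.0, 381 and 411 CPM in comparison cells. Of 4 tested germline genes with promoters that are normally methylated, only Mael was called. The call was in the direction of a higher level, where 0.669% of all tested genes were called higher. Mael was at 6.30, 17.6 and 6.36 CPM against 4.10, 10.7 and 3.07 CPM, and it lost the call at weighted depth.

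Few genes were at their highest in members. Of 6913 genes tested in all 3 classes, 4 (0.0579%) were at least 1.25-fold higher in members than in both other classes in every library, and 0 (0%) were lower than in both. These 4 were Jarid2, Peg10, 1190005I06Rik and Bcat2, and the latter pair is named after its values were seen. Jarid2, a cofactor of Polycomb repressive complex 2, was at 361, 335 and 408 CPM in members, 269, 267 and 309 CPM in comparison cells and 258, 229 and 239.7 CPM in cells low in Zfp42. Peg10, an imprinted gene of retrotransposon origin, was at 29.1, 31.4 and 53.6 CPM in members, 14, 12.4 and 23.9 CPM in comparison cells and 22.2, 21.04 and 32.8 CPM in cells low in Zfp42. Bcat2, a branched-chain amino acid transaminase gene, was at 89.1, 69.2 and 88.6 CPM in members, against 65.6, 54.4 and 67.1 CPM in comparison cells and 63.5, 50.99 and 64.4 CPM in cells low in Zfp42. All 4 also had their highest level in members in each library among cells of 20000 to 30000 UMIs.

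Members more often lay in the middle. With steps of at least 1.25-fold on each side in every library, 99 genes (1.43%) were lowest in comparison cells and highest in cells low in Zfp42, and 30 (0.434%) had the opposite order. Among listed genes the second set held Nanog, Klf4, Tfcp2l1, Tcl1 and Ldhb. The first set held 5 of the 9 imprinted genes tested in all 3 classes, namely Meg3, Rian, Snrpn, Cdkn1c and Grb10. It also held 4 formative genes, 2 BMP pathway genes, 1 DNA methylation gene and 1 early neural gene. Such an order is in part what the Dnmt3b and Zfp42 limits set.

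Imprinted genes, which are expressed from 1 parental allele under control of DNA methylation, gave a pair of calls. Of 10 tested, 7 had a ratio above 0 in every library, where 41.3% of all tested genes did, and 2, Peg10 and Meg3, were called higher, against the background of 0.669%. The list's median log2 ratio was 0.46, 0.75 and 0.63. Meg3, a long non-coding RNA of the Dlk1-Dio3 cluster, was at 598, 687 and 640.4 CPM in members and 372, 377 and 359 CPM in comparison cells, a similar difference in each library. Rian, from the same cluster and possibly the same primary transcript, had ratios of 0.58, 0.91 and 0.76. Meg3 lost the call at weighted depth, where its log2 ratios were 0.57, 0.88 and 0.80, and among cells with 0 UMIs of Fgf5 and Pou3f1. Of 8 tested genes of Polycomb repressive complex 2 none was called.

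The 10 genes called higher with the largest smallest ratio over libraries were Enpp2, Lef1, Pim2, Sox11, Peg10, Dnmt3a, Id1, Arl4c, Sox4 and Cgnl1. Enpp2, which encodes autotaxin, was at 6.92, 26.7 and 8.32 CPM in members and 1.77, 1.10 and 2.03 CPM in comparison cells. Of these 3 libraries it was highest in members of library 3, where the 33 members of 20000 to 30000 UMIs had 13.03 CPM. In cells low in Zfp42 it was at 74.1, 70.2 and 50.8 CPM. Id1, an inhibitor of basic helix-loop-helix factors and a BMP target, was at 72.3, 56.1 and 108 CPM against 35.7, 27.7 and 32.3 CPM, and it kept its call under all 18 alternatives, as did Pim2.

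The 10 genes called lower that were chosen in the same way included Tbx3, Rhox9, Rhox6, Kit, Khdc3, Fabp3, Krt42, Ddit3 and Srrm4os. Fabp3, a fatty acid-binding protein gene, was at 120.3, 227 and 117 CPM in members, 278, 444 and 299 CPM in comparison cells and 27.9, 54.9 and 27.6 CPM in cells low in Zfp42. Rhox6, an X-linked homeobox gene, was at 8.02, 5.24 and 11.97 CPM against 31.99, 10.9 and 64.4 CPM, with 20 counts in members of library 3. Rhox6 and Rhox9 are close paralogs, so reads may be split between them. Khdc3, an oocyte and early embryo gene, was at 25.5, 19.4 and 37.9 CPM against 51.04, 51.4 and 77.4 CPM. Kit, the receptor for stem cell factor, was at 11.5, 6.29 and 8.87 CPM against 25.8, 13.1 and 20.2 CPM. Ddit3 stands for 2 entries of the annotation with that symbol, and the entry with more counts was used.

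**Figure D3:**
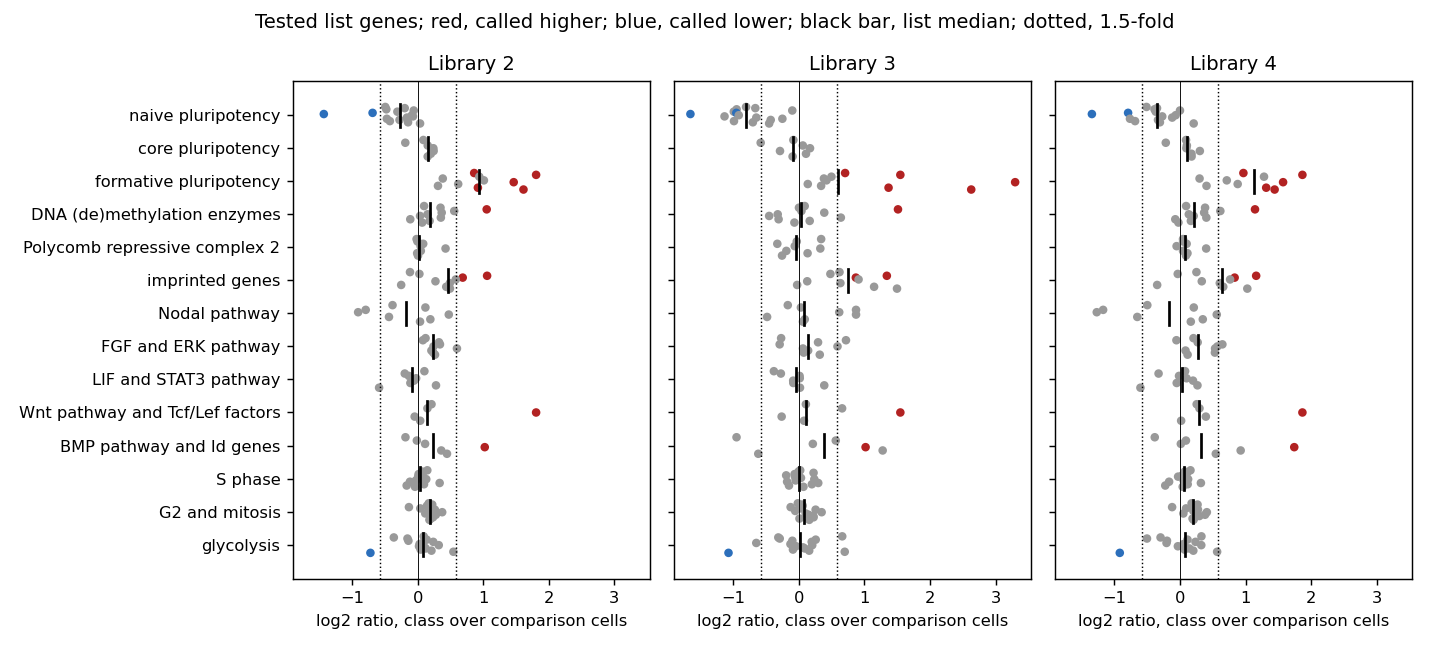
Log2 ratios of members over comparison cells for the tested genes of 14 lists in libraries 2, 3 and 4; each point is a gene, red and blue points were called higher or lower, black bars are list medians and dotted lines mark 1.5-fold. Naive genes except Tet2 lie left of 0 with medians of -0.28, -0.81 and -0.35, and formative genes right of 0 with medians of 0.93, 0.60 and 1.12. Imprinted genes have medians of 0.46, 0.75 and 0.63, and most other lists lie around 0.

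Of the genes on the Nodal, FGF and ERK, LIF and STAT3, Wnt and BMP lists only Lef1 and Id1 were called. Both were higher, where 0.669% of all tested genes were called higher. Among 8 tested Nodal pathway genes none was called, but the Nodal feedback inhibitors Lefty1 and Lefty2 went opposite ways between libraries. Lefty1 was at 53.9, 57.1 and 20.7 CPM in members and 93.6, 31.2 and 46.8 CPM in comparison cells, with log2 ratios of -0.80 (95% interval -0.88 to -0.72), 0.87 (0.67 to 1.07) and -1.17 (-1.34 to -1.01). Members were thus low in Lefty1 in libraries 2 and 4 and high in library 3, and in library 1 they were also high, at 101 CPM against 47.2 CPM. Lefty2 had ratios of -0.91, 0.61 and -1.27. Skil, a Nodal and TGFβ target, had ratios of 0.47, 0.87 and 0.56, while Smad7, an inhibitor of the same pathway, had -0.44, -0.49 and -0.65.

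None of 9 FGF and ERK pathway genes and none of 8 LIF and STAT3 pathway genes was called. In the FGF list 6 genes had a ratio above 0 in every library, against 41.3% of all tested genes, and of these Etv4 and Spred1, with 0.06 and 0.07 in library 3, lay below the size factor shift there. Among the 6 were the ERK feedback inhibitors Spry2, with 0.32, 0.29 and 0.27, and Dusp6, with 0.24, 0.59 and 0.57. Of 8 LIF list genes tested against cells low in Zfp42, 3 were called higher in members, where 3.54% of all genes tested were. These were Gbx2 and the LIF receptor subunit genes Lifr and Il6st, with Lifr at 32.4, 21.7 and 33.8 CPM against 12.8, 9.27 and 11.6 CPM. Among 5 tested Wnt pathway genes only Lef1 was called, against the background of 0.669% of tested genes called higher. Tcf7l1, the repressor that opposes Lef1 in naive cells, had ratios of 0.21, 0.11 and 0.25. Among 6 tested BMP pathway genes only Id1 was called, against the same background of 0.669%. Id3, another BMP target, was higher in members of libraries 2 and 4, with 0.44 and 0.55, and lower in those of library 3, with -0.62.

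The glycolytic enzymes were level as a list, with 1 call among 16 tested genes and a median log2 ratio of 0.08, 0.01 and 0.08, but the lactate dehydrogenase subunits diverged. Ldhb was the gene called, and it was lower, where 0.373% of all tested genes were called lower. It was at 221, 164 and 177 CPM in members and 365, 345 and 335 CPM in comparison cells. Ldha was at 1103, 1018 and 1157 CPM in members and 757, 627 and 782 CPM in comparison cells, ratios of 1.46-fold, 1.62-fold and 1.48-fold that missed the call in libraries 2 and 4. In cells low in Zfp42, Ldhb was lower again at 92.2, 78.1 and 74.1 CPM, and Ldha higher again at 1812, 1265 and 1748 CPM.

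The cell cycle lists held no call. The 14 S phase genes had median log2 ratios of 0.03, 0.01 and 0.06, with 6 above 0 in every library, and at weighted depth the medians were 0.17, 0.04 and 0.19, with 8 above 0. Of 14 G2 and mitosis genes 11 were above 0 in every library, with medians of 0.19, 0.08 and 0.21, but at weighted depth the medians were -0.02, 0.04 and -0.07 and 2 genes were above 0 in every library. Of all tested genes 41.3% were above 0 in every library, and 36.6% at weighted depth. Srrm2 was at 548, 273 and 359.9 CPM in members and 498, 224 and 315 CPM in comparison cells, with ratios of 1.10-fold, 1.22-fold and 1.14-fold, and none of the 7 genes of the Srrm2 and splicing list was called. Ribosomal protein genes took 25.98%, 27.7% and 26.9% of UMIs in members and 28.01%, 29.6% and 30.04% in comparison cells, with 0 of 83 tested genes called. None of 13 mitochondrially encoded genes was called. Of 13 tested p53 and stress response genes only Ddit3, a stress-induced transcription factor gene, was called, where 0.373% of all tested genes were called lower. It was at 4.27, 10.2 and 3.51 CPM in members against 7.86, 19.96 and 9.05 CPM.

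Markers of other cells were low in members. Genes of the primitive streak (7 genes) summed to 4.67, 4.45 and 4.21 CPM in members, trophectoderm genes (5) to 1.78, 2.88 and 2.40 CPM, primitive endoderm genes (6) to 1.14, 2.88 and 1.20 CPM and fibroblast genes (6) to 6.27, 7.08 and 4.16 CPM. Genes of the 2-cell-like state (7) summed to 0.0922, 0 and 0.100 CPM in members, with 4, 7 and 6 of them at 0, and to 0.700, 0.692 and 0.742 CPM in comparison cells, with 0, 0 and 3 at 0. In comparison cells the streak genes summed to 4.86, 2.55 and 3.56 CPM, trophectoderm genes to 1.77, 1.34 and 1.78 CPM, primitive endoderm genes to 0.622, 1.17 and 1.09 CPM and fibroblast genes to 2.76, 1.49 and 2.13 CPM. The fibroblast sum was higher in members than in comparison cells, with intervals that did not overlap in any of these libraries. In cells low in Zfp42 of libraries 2, 3 and 4 this sum was 9.39, 7.13 and 9.37 CPM, so it was not particular to members. Of the 6 fibroblast genes, 4, 2 and 4 were at 0 in members of these libraries. The trophectoderm intervals of members and comparison cells overlapped in libraries 2, 3 and 4, and the primitive endoderm intervals in libraries 2 and 4. The 2-cell-like intervals overlapped in library 3, where the upper limit in members was 0.967 CPM. In library 1 trophectoderm genes summed to 1.38 CPM in members against 2.97 CPM, and primitive endoderm genes had 0 counts in members against 1.26 CPM. Fibroblast genes there summed to 6.92 CPM against 1.39 CPM, also with intervals that did not overlap, and streak genes to 4.84 CPM against 3.27 CPM. The part of such cells in the class was not tested. None of these genes was abundant enough to be tested. Of 5 early neural genes 2 were tested. Nes, which encodes the intermediate filament nestin, was called higher, where 0.669% of all tested genes were. It was at 11.2, 30.7 and 17.4 CPM against 6.69, 4.42 and 9.49 CPM, with 81.3, 65.2 and 94.3 CPM in cells low in Zfp42. Pax6, a paired-box factor gene, was not called, at 16.3, 9.96 and 12.98 CPM against 15.1, 19.7 and 12.3 CPM, and at weighted depth its ratio was below 0 in every library.

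Among members, contractile genes were highest in library 3, and cells low in Zfp42 had more of them. In cells low in Zfp42 of libraries 2, 3 and 4 the 9 genes summed to 285, 533 and 502 CPM. The 9 genes summed to 208, 423 and 300.4 CPM in members and 194, 174 and 219.7 CPM in comparison cells of libraries 2, 3 and 4, and in library 1 to 295 CPM against 135 CPM. Of the 9 genes 5 were tested and none was called. All 5 had a ratio above 0 in every library, with medians of 0.20, 1.30 and 0.48, and 4 did at weighted depth, where 41.3% and 36.6% of all tested genes did. Tagln, which encodes transgelin, was at 1.75, 67.3 and 11.3 CPM in members and 1.30, 6.23 and 4.40 CPM in comparison cells. Acta2, the smooth muscle actin gene, was at 27.8 CPM in members of library 3 and at 0.430 and 2.96 CPM in those of libraries 2 and 4. Among the 33 members of library 3 with 20000 to 30000 UMIs Tagln was at 7.11 CPM, and among the 70 members of that library within 2 times its median it was 66.1 CPM. The part of these genes in the other differences of library 3 was not tested. The counts of genes called also turned on this library, since without it 162 were called higher and 148 lower among 11215 genes tested. A call had to hold in each library compared, so leaving one out could lose no earlier call.

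Within Zfp42-high cells the listed genes were followed over steps of Dnmt3b count of 0 to 3, 4 to 9, 10 to 14, 15 to 19 and at least 20 UMIs, the last 3 being members. In library 2 Nanog was at 177, 157, 133, 128 and 92.95 CPM over these steps, and in library 4 at 125, 113, 94.3, 91.5 and 62.6 CPM. Dnmt3a was at 30.1, 42.4, 57.01, 62.8 and 83.3 CPM in library 2 and at 36.99, 58.5, 69.3, 91.1 and 108 CPM in library 4. Both genes changed in 1 direction throughout in these libraries, with no break at the limit of 10 UMIs. Zfp42, a gene of the rule, was nearly level until the last step in libraries 2 and 4, at 676, 674, 657, 669 and 537 CPM and at 700.2, 737, 698, 710.0 and 539 CPM. In libraries 1 and 3, with 20 or more cells in the first 3 steps only, it was lower at each step, at 602, 527 and 305 CPM and at 593, 528 and 411 CPM, and among cells of 20000 to 30000 UMIs it was at 567, 530.0 and 517 CPM in library 3.

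Dnmt3l turned within the class in libraries 2 and 4. It was at 129, 167, 187, 206 and 176 CPM in library 2 and at 118, 155, 180.1, 203 and 158 CPM in library 4, so its highest level was at 15 to 19 UMIs of Dnmt3b in both. Among cells of 20000 to 30000 UMIs it was at 134, 169.5, 183, 194 and 139 CPM in library 2 and at 128, 160.3, 188, 199.9 and 181 CPM in library 4. Over the first 3 steps it was at 112, 139 and 68.5 CPM in library 1 and at 113, 139.6 and 124 CPM in library 3, over all depths highest at 4 to 9 UMIs in both. Among cells of 20000 to 30000 UMIs library 3 had 118, 149.8 and 202 CPM over these steps, highest at 10 to 14 UMIs with 27 cells, and library 1 had too few cells there. At 10 to 14 UMIs the 80 members of library 3 had Nanog at 82.2 CPM and Dnmt3a at 76.5 CPM. Cells of higher steps were deeper, with median UMIs of 19732, 22686, 26726.5, 31612.5 and 34020 in library 2.

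**Figure D4:**
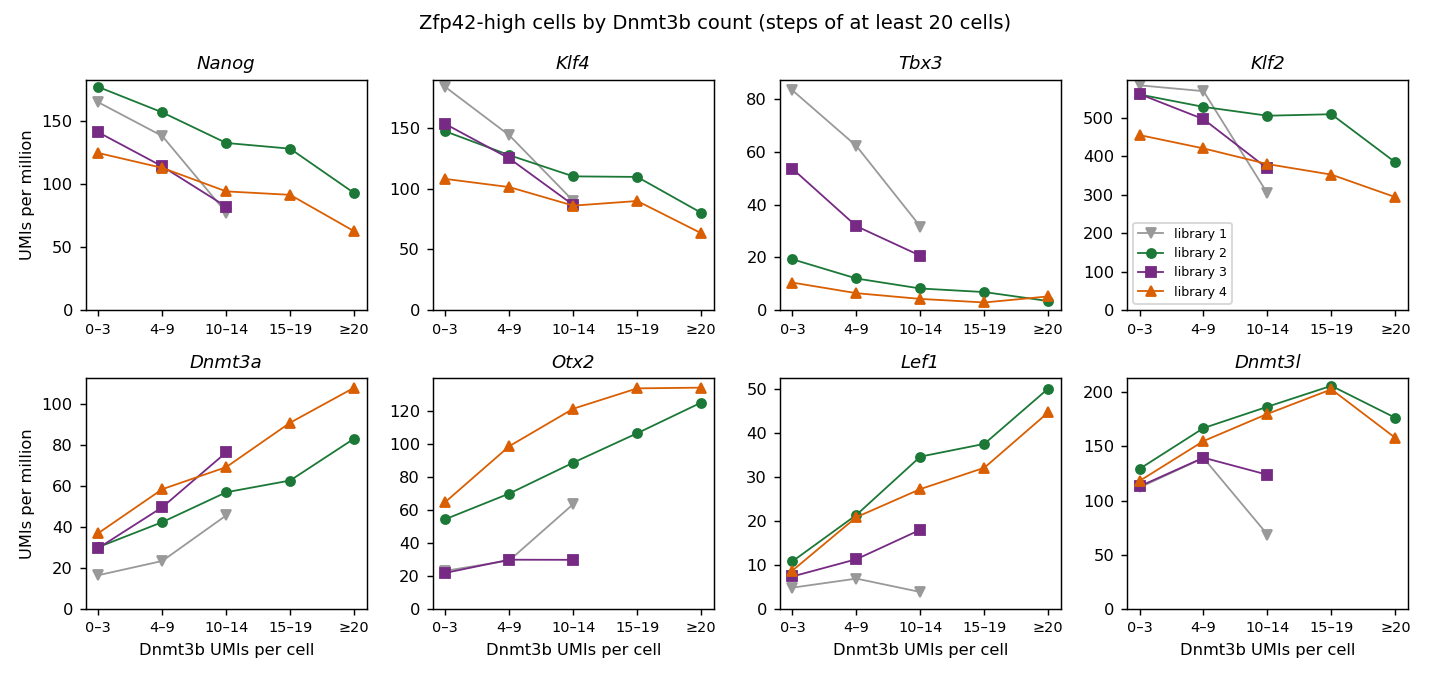
Levels (CPM) of 8 genes in Zfp42-high cells by their Dnmt3b count, in libraries 1 to 4, for steps of at least 20 cells; the last 3 steps are the members. Nanog steps down and Dnmt3a up at each step of libraries 2 and 4, and Dnmt3l is highest at 15 to 19 UMIs in both.

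Members also differed among themselves by the few Fgf5 and Pou3f1 counts that the rule allowed. Of the 1057 members of library 2, 492, 405 and 160 had 0, 1 or 2, and 3 or 4 UMIs of these genes, and in library 4 these numbers were 318, 250 and 139. In library 2 Nanog was at 148, 112 and 95.96 CPM over the 3 groups, Klf4 at 121, 97.5 and 80.9 CPM, Dnmt3a at 51.1, 66.3 and 85.1 CPM, and Otx2 at 80.2, 108 and 128 CPM. In library 4 Nanog was at 99.9, 83.5 and 69.1 CPM and Otx2 at 94.6, 142 and 165 CPM. Each of these genes kept its direction over the 3 groups in both libraries. Dnmt3l was at 201, 188 and 162 CPM in library 2 and at 207, 171 and 143 CPM in library 4, so it was highest in members without Fgf5 or Pou3f1 counts.

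In libraries 2 and 4 members with 0 UMIs of Fgf5 and Pou3f1 were thus the nearest to comparison cells in Nanog, Klf4, Dnmt3a and Otx2 and the farthest in Dnmt3l. Members of this group had Dnmt3a at 51.1, 63.03 and 63.5 CPM in libraries 2, 3 and 4 against 30.1, 29.7 and 36.99 CPM in all comparison cells. In library 3 the groups held 50, 39 and 21 members, with median UMIs of 27866, 37038 and 39798. Median UMIs also rose over the groups in libraries 2 and 4, from 27685 to 30018.5 and from 25171.5 to 29156, so depth and these counts went together. Dnmt3b rose there too, from 445 to 561 CPM and from 498 to 628 CPM, and Zfp42 fell. The part of depth and of Dnmt3b level in these orders was not tested. In library 3 Nanog was at 94.9, 69.96 and 73.3 CPM and Otx2 at 24.7, 47.5 and 33.5 CPM, without the same order as in libraries 2 and 4. Klf4, at 100.1, 68.6 and 59.6 CPM, Dnmt3a, at 63.03, 98.5 and 101 CPM, and Dnmt3l, at 162, 90.3 and 75.8 CPM, had the same order there as in libraries 2 and 4. Esrrb in library 3 was at 31.8, 34.6 and 40.995 CPM against 69.4 CPM in comparison cells, so there the group at 0 UMIs was the farthest.

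The 38 members of library 1 had the highest median UMI count of the 4 libraries. They had Nanog at 81.7 CPM against 165 CPM in comparison cells of that library, Klf2 at 309 CPM against 584 CPM, Pim2 at 185 CPM against 8.58 CPM, Enpp2 at 56.7 CPM against 0.640 CPM and Dnmt3a at 60.2 CPM against 16.4 CPM. Tagln was at 2.77 CPM in these members against 67.3 CPM in those of library 3.

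**Figure D5:**
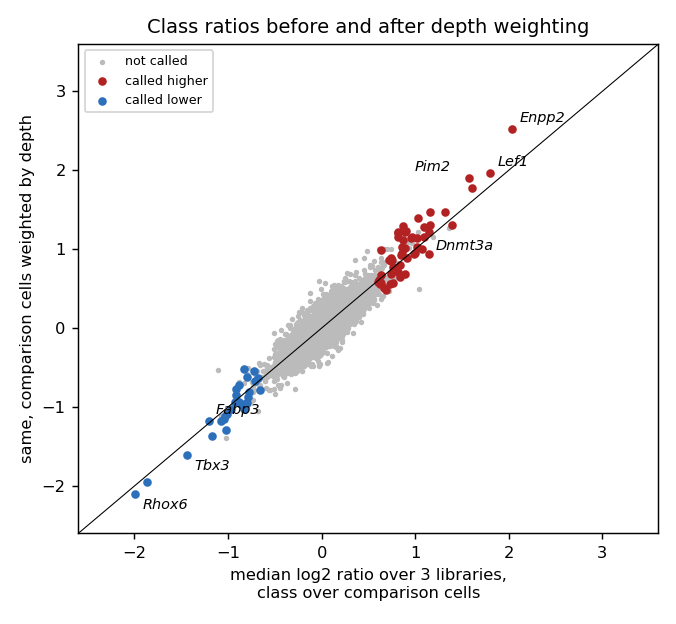
Median log2 ratio over libraries 2, 3 and 4 of members over comparison cells for 7775 tested genes (x axis), against the same ratio with comparison cells weighted to the members' depth (y axis); red and blue mark the 52 and 29 genes called without weighting, and the line marks equality. The 7 labelled genes keep their sign, Fabp3 and Lef1 lie near the line and Enpp2 and Pim2 above it.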

How the data were processed

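Droplet single-cell RNA-seq (Chromium 3′ v3) of 2 WT and 2 Srrm2 hKO samples was analysed. The authors deposited 1 matrix of raw UMI counts for 32285 genes and 41142 barcodes, made by aligning each library to mm10 with Cell Ranger 6.1.2 (submitters' processing notes) and joining the libraries with its aggregation step, which subsamples reads to similar depths. The deposited counts were not otherwise normalised. Barcodes carry a library number that no source used here ties to a sample, so no group comparison, SD between libraries or p-value was made. The study's methods call the 2 replicates of each line independent.

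Cells were kept when UMIs and genes each reached the library mean minus 1 SD and mitochondrial UMIs were at most 10%. Kept cells had 166839268 to 200180473 UMIs per library, and members 1445128, 32525317, 3816170 and 19959592 in libraries 1 to 4. At these totals 3 counts equal 2.08, 0.0922, 0.786 and 0.15 CPM. No doublet caller was run. Counts were summed per library and class, and CPM and log2 ratios were computed with exact 95% intervals (Poisson for levels, binomial for shares and ratios), which cover counting error only. A class at 0 counts was given 0.5 counts in a ratio. Depth weighting used 5 bins of UMIs per cell, the topmost with 16, 46 and 16 comparison cells in libraries 2, 3 and 4. Python 3.11.15, numpy 2.4.6 and scipy 1.17.1 were used. The code that makes the calls was checked on simulated counts with set ratios. Those counts had counting error only and no variation between cells, so they check the code and not the calls in these data.

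The members, the 24 gene lists and the tests were chosen with earlier results of these data known. The text names list members, the 10 genes called higher and the 10 called lower with the largest smallest ratio, and the 6 genes of the rule; 1 gene called lower is not reported here. The comparison with cells low in Zfp42 across all genes, the order of the 3 classes with its 1.25-fold steps, the split of members by Fgf5 and Pou3f1 counts and the window of 20000 to 30000 UMIs were added after the data were seen. Alternatives covered cell filters, depth, limits, scaling, low-count filter, fold and libraries.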

Additional observations from a re-analysis of the deposited data

How the results depend on the processing

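No paired analysis was possible because library numbers are tied to no labelled sample or replicate number, so WT and Srrm2 hKO could not be paired; all ratios were taken within a library. The class held 1912 cells. It held 1685 without cells over 2 times the library median, 1656 after thinning, 868 with Fgf5 and Pou3f1 at 0, and 682 with at least 15 UMIs of Dnmt3b, all by construction smaller or re-cut sets. Against 52 genes called higher and 29 lower, leaving out very deep cells gave 30 and 19 (5921 genes tested), Fgf5 and Pou3f1 at 0 gave 10 and 7 (5201 tested, with 8 of 18 and 7 of 17 testable earlier calls kept), at least 15 UMIs of Dnmt3b gave 174 and 142 (without library 3, which then had 30 members), an expected count of 10 gave 106 and 54, of 100 gave 13 and 13, and a 2-fold limit gave 7 and 5. Leaving out 1 library in turn gave 60 to 162 higher and 35 to 148 lower. The lowest values were without library 4, the highest without library 3, where 11215 genes were tested, and without library 2 they were 89 and 46. Without library 3 and with depth weighting, an alternative chosen after seeing the data, there were 227 and 177. Other alternatives chosen after seeing the data were cells of 20000 to 30000 UMIs, with 13 and 7 calls among 3595 genes tested, and depth weighting without very deep cells, with 33 and 16. Size factors gave 35 and 36. Thinning gave 45 and 21, of which 28 and 16 were among the earlier calls (34 and 20 of those could be tested). The cause of changes beyond fewer genes, cells or libraries was not tested. Of the named genes, 14 called higher and 12 called lower kept the sign of their median ratio over libraries under all 18 alternatives. Changing only the expected count or the fold, or leaving out 1 library without depth weighting, could not change that sign. Only 3 called higher (Dnmt3a, Id1 and Pim2) and 0 called lower kept the call, a gene with too few counts being taken as lost. An expected count of 10 and the unweighted leave-one-out alternatives could end no call.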

Other observations

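Keratin counts were 0 in 74.2%, 53.6% and 62.1% of members of libraries 2, 3 and 4, against 87.1%, 76.98% and 77.6% of comparison cells and 40.8%, 36% and 27.9% of cells low in Zfp42. Fgf5 and Pou3f1 were at 0 in 46.5%, 45.5% and 44.98% of members. Among comparison cells this share was 83.2%, 89.1% and 79.3%. These counts entered the rule and are given as values only, and members had more UMIs per cell than either other class.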
